A study of Homo sapiens with 16 samples.

Results

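Far contacts inside chromosome arms were examined in K562 nuclei: contacts between stretches of the same arm that lie more than 20 Mb apart on the linear chromosome. Pairs of 500 kb bins of build hg19 were taken from the autosomes, both bins had to lie on the same arm, and arms were split at the longest run of bins that no file listed. This gave 271886 far pairs between 5049 bins, of 449275 same-arm pairs of different bins and of 13846953 pairs of usable autosomal bins within and between chromosomes. Of 39 arms, 38 held a far pair. The short arm of chromosome 18 spans too little for any. On chromosomes 13, 14, 15, 21 and 22 the run that split the arms began at position 1, so all usable bins counted as the long arm. On chromosome 21 that run ended at 9400000, and whether all pairs there lie on 1 arm was not tested.

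Hi-C cuts fixed chromatin, ligates DNA ends that are neighbours inside the nucleus, and reads out which ends were joined. Contact falls with linear distance, and at long range a chromosome folds into 2 kinds of chromatin, compartments A and B, each of which contacts its own kind more than the other. This gives a contact map its checkerboard. A chromosomal rearrangement joins sequences that are far apart on the reference genome, and it appears as a bright spot off the diagonal.

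K562 is an established leukaemia line that carries the BCR-ABL1 fusion of chromosomes 9 and 22 and a deletion in 9p. In all groups nuclei were fixed with formaldehyde and cut with the restriction enzyme HindIII, and the cut ends were filled in with a biotin-carrying nucleotide, religated inside the nuclei and pulled down. The 4 groups differed in the length of digestion, 0.25, 1, 3 or 12 h, which the study varied so that short digestions would reach the most accessible domain boundaries. Each time had 2 replicate libraries, each sequenced in 2 runs. The values below are those of the second, deeper run unless stated. Nothing in the labels says that replicates came from separate cultures, so p-values measure only the spread between these libraries.

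The 8 libraries held 62777251 to 176412222 contacts, of which about 1834870 to 6231870 joined far pairs. A far pair held a mean of 6.75 to 22.9 contacts in a library, and the median far pair held 8.88. Depth rose with digestion time (far contacts, Spearman's rho with log2 hours 0.878, exact permutation p = 0.0103, n = 8). Slopes and contrasts were therefore also computed with every library thinned to the smallest number of far contacts, and both kept their direction and their side of the threshold. The libraries carried the known marks of K562. The bin of chromosome 9 starting at 133500001 and the bin of chromosome 22 starting at 23000001 shared 3682 to 18177 contacts, 8513 to 12598 times the mean pair between chromosomes. On chromosome 9 from 20 to 25 Mb the median coverage was 0 in every library.

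Far pairs took a larger part of same-arm contacts after 12 h of digestion. Same-arm contacts are here those between different 500 kb bins, so contacts within a bin are left out. Their share was 7.75% and 7.95% after 0.25 h (replicates 1 and 2), 7.82% and 7.96% after 1 h, 7.84% and 8.04% after 3 h and 8.31% and 8.44% after 12 h. The 12 h libraries lay above all others, and the libraries of the 3 shorter times overlapped. Against log2 hours Spearman's rho was 0.781 (n = 8, exact permutation p = 0.0349, two-sided, and 0.0419 after Benjamini-Hochberg adjustment over the 6 main trends), and Pearson's r was 0.803 (exact permutation p = 0.0167). The relation of this share to time rested on the 12 h libraries, since r was 0.363 when they were left out and 0.875 when the 0.25 h libraries were. In both sequencing runs rho was 0.781. The trend was no longer past 0.05 without 0.25 h replicate 1, 3 h replicate 2 or either 12 h replicate (rho 0.679 to 0.716, exact permutation p of 0.0794 to 0.108).

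As a share of same-arm contacts between different bins, the gain lay on both sides of a loss at intermediate distance. That total leaves out contacts within bins. How the ranges below 20 Mb moved as a share of all autosomal contacts was not tested. Per same-arm contact, the 12 h libraries differed most from the 0.25 h libraries near 5.74 Mb, where they were lower by 0.19 on the log2 scale. Beyond this loss the mean 12 h level again exceeded the 0.25 h level from 19.98 Mb on, with a log2 difference of 0.06 to 0.14 over the distance classes from 20 to 100 Mb. By range, same-arm contacts at 0.5 to 2 Mb rose from 60.4% ± 0.408 to 62.6% ± 0.433 (mean ± SD, n = 2) between 0.25 and 12 h (rho 0.927, exact permutation p = 0.00317, n = 8). Those at 2 to 10 Mb dropped from 23.4% ± 0.164 to 21.04% ± 0.237 (rho -0.976, n = 8, exact permutation p = 0.000794, which no arrangement can undercut). Those at 10 to 20 Mb dropped from 8.43% ± 0.103 to 8.03% ± 0.09996 (rho -0.927, exact permutation p = 0.00317, n = 8). Those at 20 to 40 Mb, the bulk of far contacts, went from 5.80% ± 0.0925 to 6.14% ± 0.0691, with a trend that was not past the threshold (rho 0.732, exact permutation p = 0.0548, n = 8). Replicate 2 was the higher at each time, and with times permuted only within replicate numbers the exact permutation p was 0.0174. Those at 40 to 60 Mb went from 1.45% ± 0.0316 to 1.58% ± 0.0187, and those over 80 Mb from 0.156% ± 0.00544 to 0.171% ± 0.00222. Both had a rho of 0.781 (exact permutation p = 0.0349, n = 8), with a Benjamini-Hochberg value of 0.0574 over the 51 trends computed for single libraries.

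**Figure D1:**
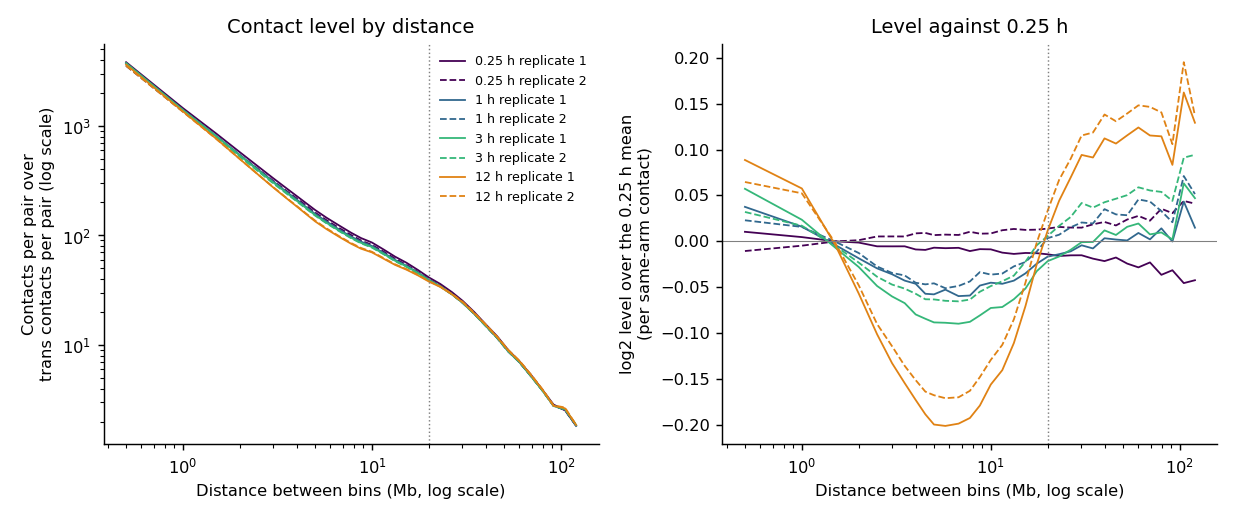
Left, contacts per pair of 500 kb bins over the mean pair between chromosomes, against distance, for each library (both axes logarithmic; solid and dashed lines are replicates 1 and 2, the dotted line marks 20 Mb). Right, the level per same-arm contact against the 0.25 h mean on the log2 scale: the 12 h libraries lie below 0.25 h around 5.74 Mb and above it beyond 20 Mb, while 1 h and 3 h stay close to the 0.25 h libraries there.

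Contacts between chromosomes rose beside the far share. They made up 9.28% and 9.43% of autosomal contacts at 0.25 h, 9.81% and 10.02% after 1 h, 9.90% and 10.3% after 3 h and 11.4% and 11.6% after 12 h (rho 0.927, exact permutation p = 0.00317, n = 8). Set against that level, far contact did not move past the threshold. A far pair held 16.2 and 15.6 times the contacts of a mean pair between chromosomes at 0.25 h, 15.6 and 15.6 times after 1 h, 15.6 and 15.5 times after 3 h and 15.6 and 15.8 times after 12 h (rho -0.098, exact permutation p = 0.861, n = 8). The 0.25 h replicates differed from each other by more than the other times differed from one another. The same ratio was 25.8 to 27.1 over libraries at 20 to 40 Mb, 10.3 to 10.7 at 40 to 60 Mb, 5.32 to 5.50 at 60 to 80 Mb and 2.79 to 2.88 beyond 80 Mb. None of these 4 ratios had a trend past 0.05. With the mean contact between chromosomes subtracted from every pair, the far share still went from a mean of 7.42% at 0.25 h to 7.91% at 12 h (rho 0.781, exact permutation p = 0.0349, n = 8).

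The decay of far contacts with distance became slightly flatter. The slope of log10 contacts per pair on log10 distance from 20 to 100 Mb was -1.82 and -1.81 after 0.25 h, -1.80 and -1.80 after 1 h, -1.80 and -1.80 after 3 h and -1.79 and -1.78 after 12 h. The 12 h libraries were the flattest and the 0.25 h libraries the steepest, with no overlap (rho 0.927, exact permutation p = 0.00317, Benjamini-Hochberg value over the 6 main trends 0.00635, n = 8; r 0.907, exact permutation p = 0.00159). With the 12 h libraries left out Pearson's r was 0.762, and with the 0.25 h libraries left out 0.931. Between 1 and 10 Mb the slope went the other way, from -1.27 ± 0.00577 to -1.34 ± 0.00866 (n = 2 each). The far slope minus this near slope rose from -0.55 ± 0.00631 to -0.44 ± 0.00721 (rho 0.976, exact permutation p = 0.000794, Benjamini-Hochberg value 0.00476, n = 8).

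The flattening was not limited to far pairs, and within the far range it was seen in the nearer part. From 10 to 20 Mb the slope went from -1.03 ± 0.00489 at 0.25 h to -0.86 ± 0.00284 at 12 h (rho 0.976, exact permutation p = 0.000794, n = 8). From 20 to 40 Mb the slope went from -1.42 ± 0.00286 at 0.25 h to -1.39 ± 0.0105, -1.38 ± 0.00495 and -1.32 ± 0.00426 at 1, 3 and 12 h (rho 0.927, exact permutation p = 0.00317, n = 8). From 40 to 60 Mb it went from -1.96 ± 0.0119 to -1.94 ± 0.0047 (rho 0.878, exact permutation p = 0.0103, n = 8). From 60 to 100 Mb it went from -2.16 ± 0.0257 to -2.21 ± 0.00153, a steepening (rho -0.781, exact permutation p = 0.0349, n = 8) whose Benjamini-Hochberg value over 51 trends was 0.0574. When the range began at 30 Mb no trend passed the threshold (rho -0.293, exact permutation p = 0.513, n = 8). In the first run, which held 8918994 to 20237350 contacts a library, the 20 to 100 Mb slope gave a rho of 0.195 (exact permutation p = 0.672, n = 8).

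Arms differed in slope by more than digestion times did. In the 18 arms that reach 60 Mb, the slope from 20 to 60 Mb had a median of -1.67 over arms. It was steepest in 1p (-1.93), 10q (-1.92) and 2q (-1.91), and shallowest in 15q (-1.28), 5q (-1.56) and 3q (-1.57). In 15q it was -1.31 at 0.25 h and -1.24 after 12 h, and in 1p it was -1.97 and -1.88. The slope rose with time in 18 of 18 arms (exact permutation test with Benjamini-Hochberg adjustment over arms, threshold 0.05; 100% called). With times permuted only within replicate numbers, 10q and 15q were not past the threshold (adjusted exact permutation p = 0.0556 each). The rise from 0.25 to 12 h was 0.03 to 0.16 over arms, with a median of 0.07.

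How often far pairs touched at all varied widely between arms. Here the level of an arm is the log2 of its far contacts over those of the mean autosomal pair at the same distances. The lowest was 9p at -5.39, where 508 far pairs held a mean of 0.272 to 1.01 contacts in a library. The mean pair between chromosomes held 0.433 to 1.47, so far contact on 9p did not stand above that level. The arm 9p holds the stretch without coverage between 20 and 25 Mb. Leaving aside 19p and 17p, with 11 and 6 far pairs, 9p was followed by 22q (-1.79), 16p (-1.65), 19q (-1.57) and 17q (-1.30). The highest were 5p (0.80), 7q (0.78), 1q (0.41) and 6p (0.37). Recovered contacts keep differences in coverage and copy number between bins. Whether these are gone from single pairs of the deposited balanced signal, which gives listed bins nearly equal totals, was not tested. On that signal 9p stayed lowest (-4.68), 22q was at -0.54, 5p at 0.40, 7q at 0.24, 1q at 0.06 and 6p at 0.05. There 8p, at 0.03 on recovered contacts, was second highest at 0.34.

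On recovered contacts 29 of 38 arm levels (76.3%) had a time trend, 22 rising and 7 falling (exact permutation, Benjamini-Hochberg over arms). The arms that rose most included 22q, from -1.99 ± 0.0106 to -1.52 ± 0.0448 between 0.25 and 12 h, and 20q, from -1.14 to -0.75. Those that fell included 4q, from 0.41 to 0.29, and 13q, from -0.33 to -0.40. Over the 38 arms the change from 0.25 to 12 h had a rank correlation of 0.717 with the percentage of bins in compartment class 1, defined below, a description over arms that share libraries. On the balanced signal 1 arm rose (7q, 0.24 to 0.25) and 0 fell. That signal evens out the coverage of bins, and the part of coverage in the arm trends was not tested.

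The checkerboard of far pairs sharpened with digestion. Bins were put into 2 classes by contacts between chromosomes, which the far pairs do not enter. The class score was the first eigenvector, the leading pattern, of these contacts after balancing, and its sign gave the class. The sign was set so that the gene-rich chromosomes 19, 17 and 22 had a higher mean score than the gene-poor chromosomes 13, 18 and 4. Class 1, on the side of the gene-rich chromosomes, held 2407 bins, and class 2 held 2856. The checkerboard contrast is the log2 of same-class over different-class contact, each relative to the arm's mean at the same distance. Same-class contact is the geometric mean of the levels within class 1 and within class 2, which thus weigh equally however many pairs each holds. For far pairs it was 0.76 and 0.74 after 0.25 h, 0.78 and 0.77 after 1 h, 0.79 and 0.78 after 3 h and 0.87 and 0.86 after 12 h. The 12 h libraries stood above all others and the 0.25 h libraries below all others (rho 0.927, exact permutation p = 0.00317, Benjamini-Hochberg value over the 6 main trends 0.00635, n = 8; r 0.919, exact permutation p = 0.00159). With the 12 h libraries left out Pearson's r was 0.861, and with the 0.25 h libraries left out 0.927.

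On recovered contacts, contact within class 1 rose, and contact between classes was lower at 12 h. Factors of single bins such as coverage need not cancel fully in the contrast. On the balanced signal its mean over far pairs was 0.79 at 0.25 h and 0.90 at 12 h. The level of a single class combination on recovered contacts keeps these factors, and their part in it was not tested. Observed over expected contact between class 1 bins was 1.15 and 1.19 after 0.25 h, 1.17 and 1.20 after 1 h, 1.19 and 1.22 after 3 h and 1.26 and 1.29 after 12 h (rho 0.878, exact permutation p = 0.0103, n = 8). Between class 2 bins it was 1.26 ± 0.0241 at 0.25 h and 1.25 ± 0.0135 at 12 h, a difference below the spread between replicates (rho -0.439, exact permutation p = 0.300, n = 8). Replicate 1 was the higher at each time, and with times permuted only within replicate numbers the exact permutation p was 0.0243. Between classes it was 0.722 ± 0.0107 and 0.693 ± 0.00462 (rho -0.732, exact permutation p = 0.0548, n = 8; r -0.827, exact permutation p = 0.0119).

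Far pairs showed more contrast than near pairs at every digestion time, and the gap narrowed. At 2 to 20 Mb the contrast was 0.36 ± 0.0126 at 0.25 h and 0.50 ± 0.00790 at 12 h (rho 0.976, exact permutation p = 0.000794, n = 8). The far minus the near contrast fell from 0.39 ± 0.00442 to 0.36 ± 0.00157 (rho -0.878, exact permutation p = 0.0103, Benjamini-Hochberg value 0.0155, n = 8). That fall was not past 0.05 on the balanced signal, in the first run or after the mean contact between chromosomes was subtracted, each with a rho of -0.732 (exact permutation p = 0.0548, n = 8). With only the upper and lower 20% of bins in the class score it was reversed, with a rho of 0.537 (exact permutation p = 0.190, n = 8).

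**Figure D2:**
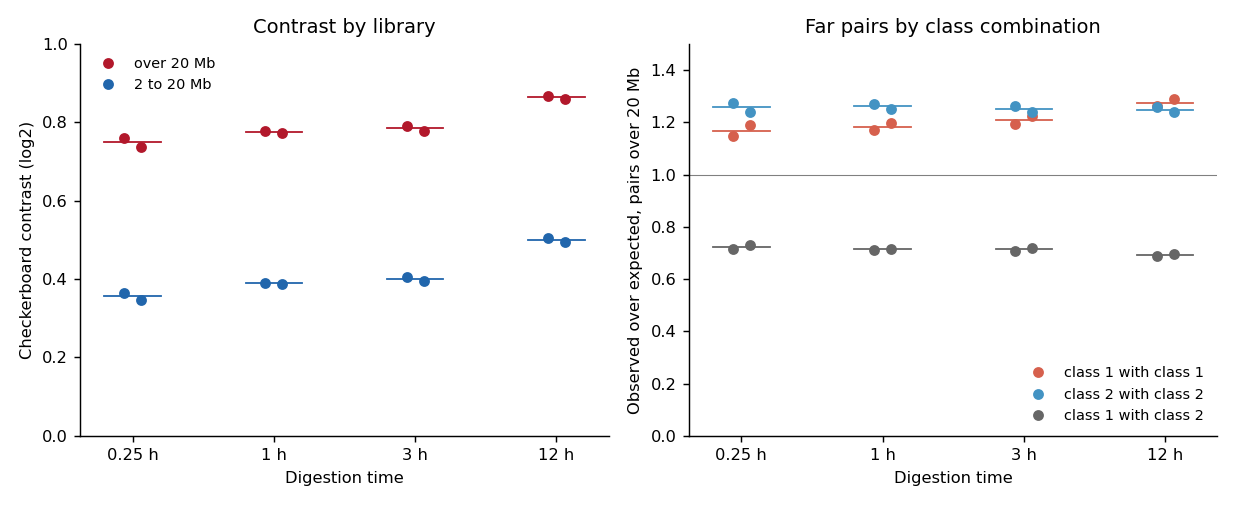
Left, checkerboard contrast (log2) in each library for pairs over 20 Mb apart and for pairs 2 to 20 Mb apart. Right, observed over expected recovered contacts of far pairs by class combination, where points are libraries and short lines the means of 2 replicates. Far contrast rises from a mean of 0.75 at 0.25 h to 0.86 at 12 h, with class 1 pairs rising from 1.17 to 1.28.

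Contrast also grew with distance up to 80 Mb. At 0.25 h it was 0.72 ± 0.0164 at 20 to 40 Mb, 0.80 ± 0.0151 at 40 to 60 Mb, 0.85 ± 0.0249 at 60 to 80 Mb and 0.76 ± 0.0372 beyond 80 Mb. At 12 h these were 0.84 ± 0.0065, 0.90 ± 0.00633, 0.95 ± 0.00145 and 0.84 ± 0.0110. The first 3 rose with time (rho 0.976, 0.878 and 0.830, exact permutation p = 0.000794, 0.0103 and 0.0198, n = 8), and the last was not past the threshold (rho 0.634, exact permutation p = 0.110, n = 8). On recovered contacts, which keep the coverage of bins, the 2 classes changed places along this range. At 0.25 h, class 1 pairs stood at 1.09 and class 2 pairs at 1.29 times expected at 20 to 40 Mb, and at 1.59 and 1.08 times at 60 to 80 Mb. Shorter arms hold no pairs at 60 to 80 Mb, so the ranges do not rest on the same arms. The part of this in the differences between ranges was not tested.

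Nearly every chromosome took part. Far contrast rose with time on 17 of the 21 chromosomes tested (exact permutation, Benjamini-Hochberg over chromosomes, threshold 0.05; 81.0% called) and fell on 0. The 12 h libraries lay above the 0.25 h libraries with no overlap on 20 chromosomes (95.2%). Not past the threshold were 4 (adjusted exact permutation p = 0.0639), 21 (0.211), 19 (0.247) and 20 (0.247). Chromosome 22 has no far pair within class 2 and could not be scored. The count dropped to 10 without 0.25 h replicate 2, to 9 without either 12 h replicate, and to 9 of 18 chromosomes for pairs over 30 Mb.

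The highest mean contrasts were those of chromosomes 17 (1.92), 21 (1.31) and 11 (1.16), and the lowest those of 19 (0.34), 6 (0.51) and 15 (0.69). The values for 17, 19 and 20 rest on 1, 3 and 8 far pairs within class 2, and 21 has 41 far pairs within class 1. Among the 17 chromosomes with at least 50 far pairs of each combination, the contrast ran from 0.51 on chromosome 6 to 1.16 on chromosome 11, and 16 rose past the threshold. On chromosome 11 it was 1.10 and 1.08 after 0.25 h, 1.13 and 1.14 after 1 h, 1.16 and 1.14 after 3 h and 1.25 and 1.24 after 12 h. On chromosome 6 it was 0.48 and 0.45, 0.49 and 0.48, 0.51 and 0.49, and 0.59 and 0.57. Their order was kept in every library, and they rose by 0.15 and 0.11 from 0.25 to 12 h, against a median of 0.11 over the 17 chromosomes. On chromosome 4 class 1 pairs stood at 1.61 times expected and class 2 pairs at 1.06, on recovered contacts. Chromosome 12 showed the opposite order, 1.17 and 1.59. Over those 17 chromosomes the mean contrast had a rank correlation of 0.098 with the percentage of bins in class 1.

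**Figure D3:**
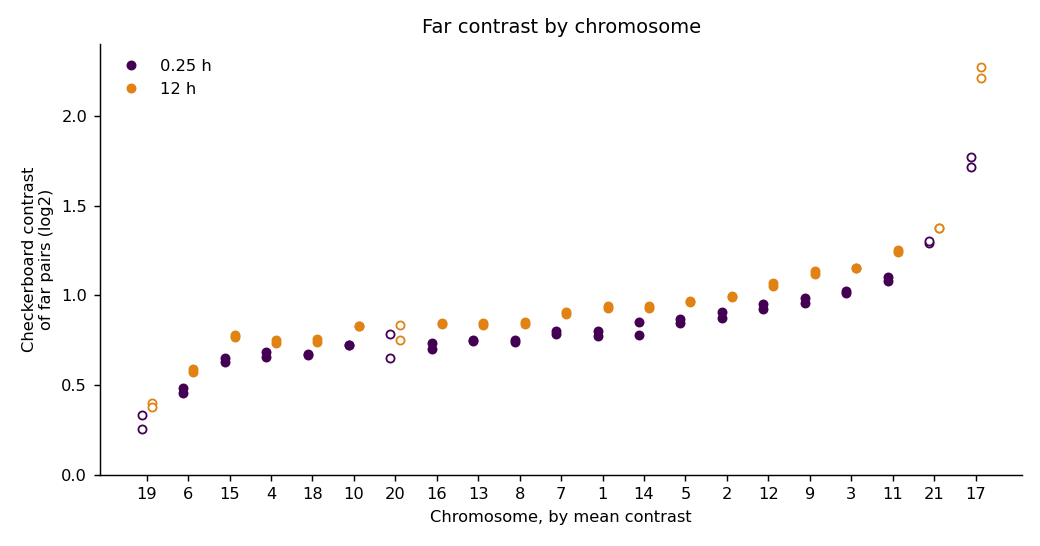
Far contrast (log2) of each chromosome at 0.25 h and 12 h, both replicates, ordered by the mean over all libraries. Open points mark chromosomes with fewer than 50 far pairs in a class combination. On 20 of 21 chromosomes both 12 h points lie above both 0.25 h points.

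Single bins sent a larger part of their contacts far after 12 h. The far share of a bin is its far contacts over all its contacts with other bins of the arm. Over the 4053 bins with at least 40 far partners its median was 8.85% and 9.07% after 0.25 h, 8.93% and 9.11% after 1 h, 8.96% and 9.16% after 3 h and 9.48% and 9.64% after 12 h. Between 0.25 h and 12 h limma called 1923 of the 4053 bins (Benjamini-Hochberg threshold 0.05; 47.4% called), 1831 lower at 0.25 h (45.2%) and 92 higher (2.27%). The libraries of these times did not overlap in 72.6% of bins with the lower share at 0.25 h and in 5.67% with the higher. Against 12 h, 1429 bins were called at 1 h (35.3%) and 880 at 3 h (21.7%), and the trend over log2 hours called 1579 (39%). The count was 1076 on the balanced signal, 1067 lower and 9 higher. It was 1125 with same-arm contacts thinned to the same number in every library, and it dropped to 1175 without 0.25 h replicate 1, 1248 without 12 h replicate 1 and 434 without 12 h replicate 2. In the first run limma called 0 of 3605 bins, with 729 at an unadjusted p under 0.05. All bins share the same libraries, and bin shares were not set against the far share of the whole library. The calls thus include the shift common to all bins.

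Bins called higher at 0.25 h were mostly of class 1, and they made up a larger part of the bins near outer arm ends than elsewhere. Bins within 5 Mb of the outer end of an arm had a median log2 difference (0.25 h minus 12 h) of 0.001, against -0.10 over all bins tested. Of these 261 bins, 42 were called higher at 0.25 h (16.1%) and 39 lower (14.9%). Bins within 5 Mb of the centromeric gap had a median of -0.13, with 152 of 251 called lower (60.6%) and 0 called higher. Of the 3541 bins over 5 Mb from both ends, 50 were called higher (1.41%) and 1640 lower (46.3%). Of the 92 bins called higher, 89 were of class 1, which held 1693 of the bins tested (5.26% of class 1), and 3 of class 2 (0.127%). On 16q the median was 0.02, the only arm above 0 of those with bins tested, but only 14 of its bins had enough far partners. On 1p, with 239 bins, it was -0.05, and on 18q, with 78, it was -0.13. These group counts and medians are descriptions, differences between groups of bins were not tested, and only 9 bins were called higher on the balanced signal.

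**Figure D4:**
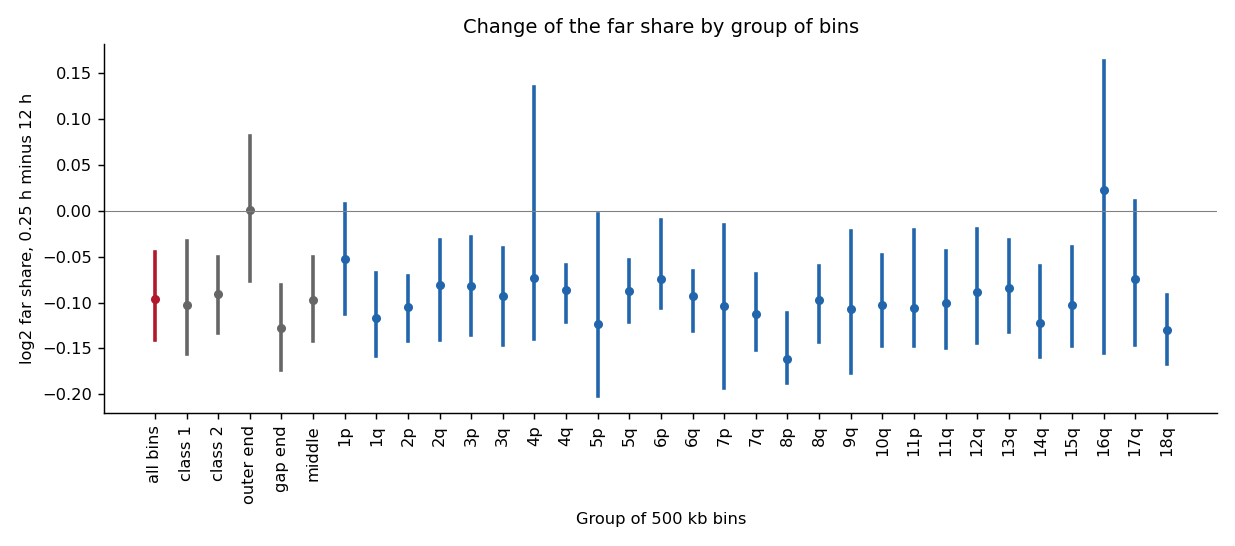
Median (points) and quartiles (lines) of the log2 difference in far share of 500 kb bins, 0.25 h minus 12 h, for all 4053 bins, by class, by position in the arm (within 5 Mb of the outer end, within 5 Mb of the gap, and between) and by arm. The medians lie below 0, except those of the bins at outer arm ends, at 0.001, and of 16q, at 0.02. Upper quartiles lie above 0 in these groups and in 1p, 4p and 17q.

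The largest changes were seen in bins of both classes. The bin of 1q from 149000001 to 149500000 had a far share of 20.3% and 17.6% after 0.25 h, 20.9% and 21.9% after 1 h, 21.04% and 21.5% after 3 h and 26.1% and 25.4% after 12 h (log2 fold change -0.45, SE 0.0514, limma adjusted p = 0.000667). Here the 12 h libraries lay above all others and the 0.25 h libraries below all others. Next came 9q from 87500001 to 88000000 (-0.41), 17q from 36500001 to 37000000 (-0.39), 7p from 13000001 to 13500000 and 7p from 6500001 to 7000000 (-0.38 each). The 17q bin was 76% present and held 67 to 430 far contacts a library. The 5 named bins with the higher share at 0.25 h were all of class 1. The first was 9q from 139000001 to 139500000, at 9.87% and 11.1% after 0.25 h, 8.62% and 9.80% after 1 h, 9.18% and 9.09% after 3 h and 7.97% and 8.01% after 12 h (log2 fold change 0.39, SE 0.0585, limma adjusted p = 0.00135). It rested on 139 to 480 far contacts a library. The others were 11p from 1500001 to 2000000 (0.36), 11q from 67500001 to 68000000 (0.34), 3p from 49500001 to 50000000 (0.31) and 9q from 140000001 to 140500000 (0.30). The last, 68% present, was at 9.03% and 13.2% after 0.25 h and at 9.01% and 8.75% after 12 h. Its difference thus rested on 0.25 h replicate 2, with 112 far contacts (limma adjusted p = 0.0421). Of these 5 bins, 3 lie within 1.5 Mb of the outer end of their arm.

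At the level of single far pairs few changes could be called. Of 125381 far pairs with a mean of at least 10 contacts, 46.1% of all far pairs, limma called 4 between 0.25 h and 12 h on the balanced signal (0.00319%), 3 of them higher and 1 lower at the shorter time. The 1 lower can owe its place past the filter to the 12 h libraries. It was not tested at equal depth, where 3 pairs were called higher and 0 lower. Without adjustment 7128 pairs had a p under 0.05 (5.69%). The libraries of the compared times did not overlap in 45144 pairs (36%). Against 12 h limma called 1 pair at 1 h (0.000798%) and 1 at 3 h (0.000798%), and its trend over log2 hours called 2 (0.0016%). The median log2 difference over the pairs tested was -0.06. No change is read from it, since pairs past the filter on mean contacts can owe that to the deeper 12 h libraries. Without 0.25 h replicate 1 the count was 819, and over the other libraries left out it was 1 to 7.

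The 4 called pairs, all named here after their values were seen, form 2 places. On 12p the bin from 9500001 to 10000000 met the bin from 31000001 to 31500000 in 288 and 350 contacts after 0.25 h, 247 and 198 after 1 h, 297 and 252 after 3 h and 190 and 187 after 12 h. Its contacts were thus fewest at 12 h, where the libraries are deepest. The balanced signal over the mean far pair was 119 and 315 after 0.25 h and 15 and 13.1 after 12 h (log2 fold change 3.78, SE 0.276, limma adjusted p = 0.000139). On recovered contacts the fold change was smaller, 1.98 on the log2 scale (limma adjusted p = 6.7e-08). In the first run it was 2.59 (limma adjusted p = 2.31e-05). The neighbouring pair with the bin from 30500001 had a log2 fold change of 2.64 (limma adjusted p = 0.0440), and 0.65 on recovered contacts (limma adjusted p = 0.567). Its limma adjusted p was 0.0581 with replicate number as a block, 0.101 at a mean of 5 contacts and 0.595 with no filter. At equal depth it was 0.000383, and with a pseudocount of 0.5 it was 0.0346.

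On 7q the bin from 76500001 to 77000000 met the bin from 102000001 to 102500000 in 211 and 215 contacts after 0.25 h, 181 and 143 after 1 h, 184 and 181 after 3 h and 176 and 143 after 12 h (log2 fold change 1.47, SE 0.150, limma adjusted p = 0.00574). On recovered contacts it was 1.65 (limma adjusted p = 5.99e-07). The limma adjusted p was 0.0706 in the first run, 0.0647 without 12 h replicate 1 and 0.179 without 12 h replicate 2, none past the threshold. The bin from 73500001 met the same partner in 5 and 2 contacts after 0.25 h, 17 and 7 after 1 h, 12 and 11 after 3 h and 26 and 28 after 12 h. Its log2 fold change was -3.33 (limma adjusted p = 0.00609), but -1.60 on recovered contacts (limma adjusted p = 0.434). This pair can owe its place past the filter on mean contacts to the 12 h libraries, so no change is read from it. At equal depth it fell below the filter, and with no filter the limma adjusted p was 0.0936. In each of the 4 pairs 1 bin was only 76% to 80% present in the files, so the 90% rule left all of them out. How uniquely reads can be placed in the bins of these pairs was not tested. With only the 2 times in the fit none was past the threshold (limma adjusted p of 0.0932 to 0.884).

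Spots were far pairs with at least 8 times the contacts of the mean autosomal same-arm pair at their distance in every library. The level chose them, so their levels are a description. The median far pair had a mean observed over expected of 0.864 over libraries, and 1% of far pairs had a mean above 3.30. Of the far pairs, 20 reached 8 in every library, and they formed 5 local maxima on 13q, 6p and 7q. Just outside the rule lay 7q at 62000001 with 115000001, whose lowest library was at 7.68, 3p at 1 with 75000001, at 7.51, and 7q at 120500001 with 141000001, at 7.02.

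The strongest spot joined 13q from 81000001 to 81500000 with 13q from 108500001 to 109000000, 27.5 Mb away. It held 1509 and 746 contacts after 0.25 h, 1652 and 998 after 1 h, 1944 and 1494 after 3 h and 2538 and 2197 after 12 h. This was 65.9 and 61.5 times expected at 0.25 h and 60.9 and 59.0 times after 12 h. The mean pair of bins reaches that level at 0.828 Mb. It was a single point, with the 4 adjoining pairs at 1.22 to 1.81 times expected. The first anchor carried 3.895 times and the second 1.75 times the same-arm contacts of the median bin. The balanced signal, in which the totals of listed bins are nearly equal, gave 11.01 times expected. Within the spot the 20 kb pair with most contacts joined 81320001 to 81340000 with 108520001 to 108540000, with 214 contacts over all libraries, 1.41% of those in the surrounding window.

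The anchors of this spot also touched the BCR-ABL1 junction, a comparison added after the spots were found. The first anchor met the fusion bin of chromosome 9 at 1353 to 1485 times and that of chromosome 22 at 1286 to 1715 times the mean pair between chromosomes, over the 8 libraries. The second met them at 1340 to 1679 and 838 to 1018 times. Its strongest partner on another chromosome was the bin of chromosome 9 from 134000001 to 134500000, at 2821 to 3260 times. For the anchors of the other 4 spots the mean level with either fusion bin was 3.46 to 13.8 times. The 13q anchors themselves have raised contact with bins of other chromosomes in general, with medians of 3.82 and 2.12 times the mean pair.

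The spot on 6p joined 16500001 to 17000000 with 51000001 to 51500000, 34.5 Mb away, at 29.8 and 28.6 times expected at 0.25 h and 29.4 and 28.9 times after 12 h. It differed in shape from that on 13q, since adjoining pairs were also high. They stood at 27.8 times expected toward lower coordinates of the first anchor and at 1.88 toward higher ones. For the second anchor they stood at 21.1 and 26.9. The 20 kb pair with most contacts in the window around it joined 16760001 to 16780000 with 51720001 to 51740000, with 283 contacts over all libraries. On the balanced signal it was the highest of the 5, at 15.4 times expected. Its first anchor met the bin of chromosome 16 from 85000001 to 85500000 at 326 to 382 times the mean pair between chromosomes, its strongest partner elsewhere.

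The 3 spots on 7q all had their first anchor within 1 Mb of the centromeric gap. The bin from 61500001 to 62000000 met 104500001 to 105000000 at 31.1 times expected (25.1 to 34.8 over libraries) and 108500001 to 109000000 at 12.9 times (10.04 to 15.1). The bin from 62000001 to 62500000 met 147000001 to 147500000, 85 Mb away, at 10.1 times (8.24 to 12.9), on 12 to 51 contacts a library. At the first of these the level stepped up along 7q, from 0.665 times expected in the bin before the second anchor to 31.1 at it and 20.8 in the bin after. The bin from 61500001 is 68% present and carries 0.441 times the same-arm contacts of the median bin. The bin from 62000001 had a median of 3.32 times expected over all its 153 far partners. Its strongest partner on another chromosome was chromosome 12 from 38000001 to 38500000, at 50.4 to 148 times the mean pair between chromosomes. For the bin from 61500001 it was chromosome 12 from 34500001 to 35000000, at 47.7 to 87.9 times. Both partners lie at the centromeric gap of chromosome 12. The balanced signal gave 10.1, 4.27 and 2.38 times expected for these 3 spots. At the lower threshold of 5 in every library, 61 of the 104 far pairs were on 7q and 29 on 6p. Of all 271886 far pairs, 11527 were on 7q and 2926 on 6p. The expected level came from all arms, and over all their far pairs 7q and 6p stood at 0.78 and 0.37 on the log2 scale. The counts thus include the level of the arm.

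**Figure D5:**
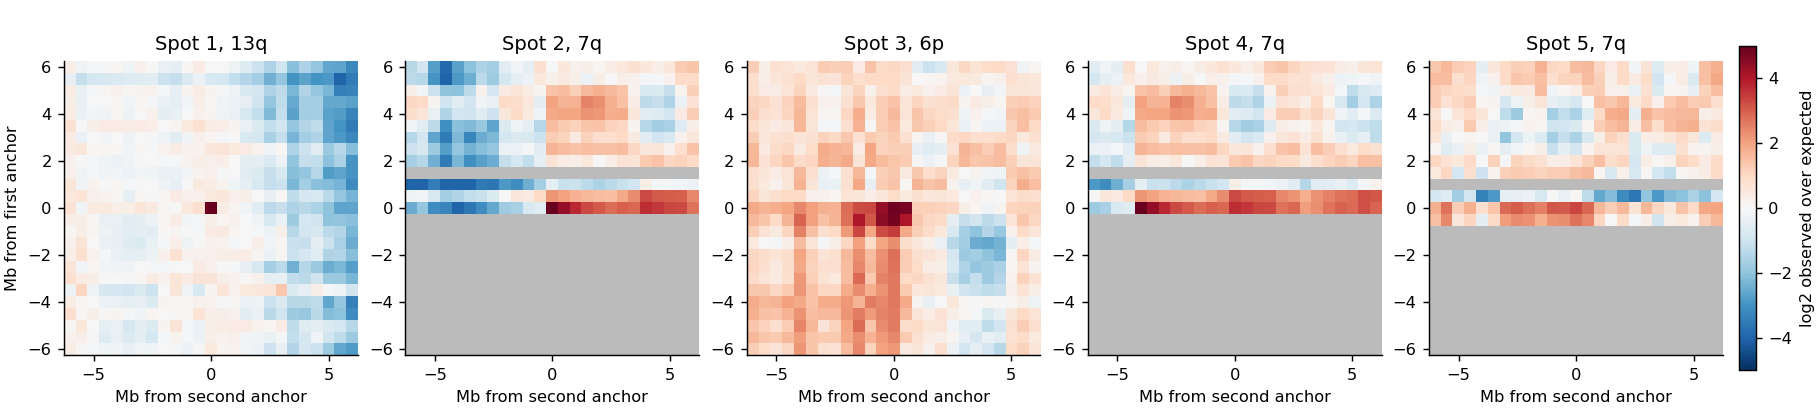
Observed over expected contact (log2 scale, mean of 8 libraries) around each of the 5 spots, with the distance in Mb from the first anchor on the vertical axis and from the second on the horizontal axis. Grey marks bins not used, such as the centromeric gap of chromosome 7. The 13q spot is a single pair of bins at 63.1 times expected, that on 6p spreads to lower coordinates of its first anchor, and those on 7q are stripes along the bins next to the gap.

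The rule keeps only pairs that are high in every library, so a spot that faded or appeared with digestion is not among the 5, and their time course describes them alone. The mean log2 observed over expected of the 5 was 4.62 and 4.57 after 0.25 h, 4.59 and 4.63 after 1 h, 4.55 and 4.61 after 3 h and 4.501 and 4.37 after 12 h (rho -0.683, exact permutation p = 0.0825, n = 8; r -0.728, exact permutation p = 0.0286). Pearson's r was -0.261 without the 12 h libraries, the lowest of all. By single spot 0 of 5 were past 0.05 after adjustment (0% called), and 0 had a rho with an unadjusted exact permutation p under 0.05. By Pearson's r 1 did, 7q 61500001 with 108500001 (r -0.761, exact permutation p = 0.0262). The change from 0.25 to 12 h was -0.09 for 13q, -0.002 for 6p, and -0.26, -0.42 and -0.04 for those on 7q, each on the log2 scale. On the balanced signal rho was 0.098 (exact permutation p = 0.861, n = 8), with means of 2.79, 2.82, 2.87 and 2.76 after 0.25, 1, 3 and 12 h. Without 0.25 h replicate 2 the fall was past 0.05 (rho -0.844, exact permutation p = 0.0222).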

How the data were processed

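Each deposited file lists pairs of 20 kb bins (second run) or 50 kb bins (first run) with a balanced contact signal. Its sums per listed bin were nearly equal, with a range of at most 0.0097% of their median in a file. The submitters' processing notes name HiC-Pro 2.11.1, Bowtie2 2.3.4.1 and hg19. Read filters are not given in the sources used here. The authors' signal is a whole number of contacts times a factor per bin. Factors were fitted on pairs of 1 contact, 100% of recovered values (rounded) lay within 0.01 of a whole number, and recovered totals equalled the deposited ones. Contacts were summed to 500 kb bins at least 60% present in all 8 files.

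Trends are exact two-sided permutations of Spearman's rho with log2 hours (2520 arrangements). Slopes used 12 distance classes. Bins and pairs were tested with limma 3.58.1 (R 4.3.3, trended variance, all times in 1 fit): pairs on log2(signal over the mean far pair + 0.1), bins on log2 far share with a mean of at least 100 far contacts. Scripts were tested on simulated data. Chromosome 22 had no contrast, so adjustment was over 21 chromosomes in place of the 22 planned. Members, lists and tests were chosen with earlier results of these data known. Named regions are the 3 highest and lowest chromosomes, and the 5 highest and lowest bins past the threshold, whose 0.25 h and 12 h libraries do not overlap, at most 1 per 5 Mb block counted from the chromosome start. No hg19 annotation was used, so intervals carry no gene names. PCR copies cannot be told apart, so depth is that of deposited contacts.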

Additional observations from a re-analysis of the deposited data

How the results depend on the processing

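Settings were changed one at a time, except that the first run also has 50 kb bins and fewer contacts. The far share trend kept its direction and side of the threshold in 7 of 7 other settings, and the far contrast trend in 11 of 11. Leaving out 1 library at a time gave a rho of 0.679 to 0.899 for the far share (past the threshold in 4 of 8), 0.899 to 0.973 for the far slope and for the far contrast, and -0.844 to -0.532 for the spot level. Chromosomes with a contrast trend ranged from 9 to 18, pairs called from 1 to 819 and bins called from 434 to 1910. For the far slope minus the near slope rho was 0.973 throughout, and for the far minus the near contrast it was -0.973 to -0.826. The far slope trend weakened to 0.195 in the first run and its rho turned to -0.293 from 30 Mb on, though the mean slope there was -1.962 at 0.25 h and -1.959 at 12 h. From 30 Mb on, 9 chromosomes had a contrast trend. The far minus near contrast trend weakened to -0.732 on the balanced signal, in the first run and with the mean contact between chromosomes subtracted, and it reversed to 0.537 with the upper and lower 20% of bins. For the spot level rho was 0.098 on the balanced signal, with a mean of 2.79 at 0.25 h and 2.76 at 12 h. Spots numbered 33 at a threshold of 5, 3 at 15 and 3 with the expected level of the arm itself. Pairs called numbered 1 in the first run, 1 with no filter, and 0 with bins 90% present, over 30 Mb or with only the 2 times compared. Bins called numbered 1076 on the balanced signal, 0 in the first run and 1125 at equal same-arm contacts. The shallower first run has few pairs past the filter (1569), and the 90% and 30 Mb rules leave out all 4 called pairs by construction. The cause of the other changes was not tested.

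Replicate numbers were not treated as pairs, since the labels give no shared source and deviations of same-numbered libraries correlated by only 0.026 to 0.052 over bins. Replicate 2 nevertheless had the higher far share and fewer far contacts than replicate 1 at each of the 4 times. With the replicate block, rho was 0.781 for the far share, 0.927 for slope and contrast, 16 chromosomes had a contrast trend, 3 pairs and 2271 bins were called, and no other main trend changed its side of the threshold. Of the 51 trends over single libraries the block took 10 past 0.05 and 0 out. Among the 10 were the share at 20 to 40 Mb (exact permutation p = 0.0174) and far contact within class 2 (0.0243) and between classes (0.0174). With the block the slopes of 10q and 15q were no longer past 0.05 (adjusted exact permutation p = 0.0556 each). The alternatives for the differences between far and near, for spots by distance from the gap and on the balanced signal, and for 50 pairs per combination were chosen after seeing the data. The first-run spot level leaves out the spot with 0 contacts in a library.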

Other observations

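Far pairs with at least 5 times the expected contact in every library formed 33 local maxima, of which 5 are the spots, and some of the others lay on arms without a spot. On 4q the bin from 140000001 to 140500000 met the bin from 186000001 to 186500000, 46 Mb away, at 6.69 times expected and at 7.23 times on the balanced signal. The same bin met the bin from 79500001 to 80000000, 60.5 Mb away, at 6.00 times, or 3.70 on the balanced signal. On 2q the bin from 160000001 to 160500000 met the bin from 183500001 to 184000000 at 6.28 times and 3.41 on the balanced signal. On 1q the bin from 246000001 to 246500000 met the bins from 207000001 and from 213000001 at 5.73 and 5.77 times. The first bin of 3p met the bin from 75000001 to 75500000, 75 Mb away, at 10.9 times expected and at 12.7 times on the balanced signal, on a mean of 43.1 contacts. These pairs were named after their values were seen.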
